A study of Rattus norvegicus with 28 samples.

Results

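The Egr family of zinc finger transcription factors was followed in RNA-seq of rat orbitofrontal cortex, an area of the prefrontal cortex that represents the current value of outcomes and of cues paired with them. Its 4 members were picked by Ensembl identifier from the 26405 identifiers of the count files, and all 4 were present: Egr1 (ENSRNOG00000019422), Egr2 (ENSRNOG00000000640), Egr3 (ENSRNOG00000017828) and Egr4 (ENSRNOG00000015719). All 4 passed the filter on low counts, which kept 15413 genes. Sprague Dawley rats with intravenous lines had been trained to take saline or methamphetamine (meth), an addictive stimulant, and were killed on withdrawal day 2 or day 35, straight from the home cage and without a test session named in the sources used here. The day 2 saline, day 2 meth, day 35 saline and day 35 meth groups held 4 libraries each, and each library was made from poly(A) RNA of tissue punches pooled from 2 rats. Every group thus shared surgery, training and abstinence in the home cage, and the saline groups differed from the meth groups in the agent taken. The labels used here give no sex, age or drug dose. The study's title sets the question of how transcription differs over the growth of meth craving in withdrawal.

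The Egr genes are immediate early genes: their transcription is known to begin within minutes of a stimulus, without new protein synthesis. In neurons, calcium entry and ERK kinase signalling after synaptic activity act on serum response factor with its Elk partners and on CREB at Egr promoters, and the Egr proteins then bind GC-rich sites in other genes. The NAB proteins, whose own genes are among their targets, repress them in turn. Egr mRNA in cortex is therefore widely read as a mark of recent neuronal activity.

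RefSeq promoter sequences, 250 bases before and 50 after the start of the gene in build GRCr8, were at hand for 3 of the 4 genes: Egr1 (chr18:26736828-26737127, plus strand), Egr2 (chr20:21054392-21054691, minus strand) and Egr4 (chr4:119607768-119608067, minus strand). They are printed 5′ to 3′ as background, and a link between their letters and the levels was not tested. Capitals mark the CArG box, the letters of serum response factor, and the letters TGACG of a CREB half-site on either strand (CGTCA when read on the gene's own strand).
Egr1: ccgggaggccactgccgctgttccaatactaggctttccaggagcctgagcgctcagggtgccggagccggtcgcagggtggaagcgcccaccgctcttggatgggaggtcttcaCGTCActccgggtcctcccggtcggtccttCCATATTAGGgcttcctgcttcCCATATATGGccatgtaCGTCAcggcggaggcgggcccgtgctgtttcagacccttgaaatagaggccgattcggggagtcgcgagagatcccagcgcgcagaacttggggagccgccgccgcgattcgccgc
Egr2: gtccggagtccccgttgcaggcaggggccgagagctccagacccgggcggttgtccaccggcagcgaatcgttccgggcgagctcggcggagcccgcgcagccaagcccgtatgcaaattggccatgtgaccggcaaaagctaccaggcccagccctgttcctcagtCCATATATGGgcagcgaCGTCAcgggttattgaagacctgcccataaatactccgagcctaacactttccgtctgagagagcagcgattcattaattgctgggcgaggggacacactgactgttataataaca
Egr4: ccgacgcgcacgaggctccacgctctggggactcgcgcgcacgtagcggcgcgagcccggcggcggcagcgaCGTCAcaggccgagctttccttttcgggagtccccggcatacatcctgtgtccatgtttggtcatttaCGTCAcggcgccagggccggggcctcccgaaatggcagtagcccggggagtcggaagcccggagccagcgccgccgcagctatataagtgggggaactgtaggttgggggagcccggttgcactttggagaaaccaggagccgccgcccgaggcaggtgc

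Egr1 held 2 CArG boxes, CCATATTAGG at bases 105 to 96 before the start and CCATATATGG at bases 83 to 74, and 2 half-sites. Egr2 held 1 CArG box, CCATATATGG, also at bases 83 to 74, and 1 half-site at bases 66 to 62, where Egr1 has one too. Egr4 held 2 half-sites and no CArG box by these letters. No marked match overlapped another. Among 33469 rat promoters of the same length, 1.64% held a CArG box, 0.0209% held 2 or more, 21.2% held TGACG on either strand, and 0.272% held both kinds of match. The Egr protein's own 9-letter site GCGTGGGCG, found on either strand in 0.544% of these promoters, was in none of the 3 windows. A match describes the letters and not binding, which was not measured.

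Libraries held from 20.33 to 48.47 M (megareads) assigned to genes, and the day 2 saline libraries were the shallowest (20.33 to 23.54 M). The day 2 meth libraries held 24.97 to 37.48 M, and the day 35 libraries 31.85 to 48.47 M. Differences were tested with edgeR's quasi-likelihood test in 1 fit of all genes and all 16 libraries, and the calling threshold was 0.05 on the p adjusted after Benjamini and Hochberg. Levels are in CPM (counts scaled to a common library size, here after TMM) and are not divided by gene length, so they are compared between libraries and not between genes. In bulk tissue, fewer cells expressing a gene and less RNA per cell cannot be told apart.

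Egr1, also known as zif268 or NGFI-A, is the member most studied in memory, and in mice it is needed for late-phase potentiation in the hippocampus. In day 2 saline rats it stood at 313, 165, 250 and 138 CPM in replicates 13 to 16, a mean of 216 ± 79.9 CPM (SD, n = 4). In day 2 meth rats it stood at 173, 249, 191 and 197 CPM in replicates 1 to 4 (202 ± 32.6 CPM), all inside the range of the saline libraries. In day 35 saline rats replicates 9 to 12 gave 400, 396, 265 and 278 CPM (335 ± 73.1 CPM). The day 35 meth libraries split in the same way, with 379 and 411 CPM in replicates 5 and 6 and 204 and 250 CPM in replicates 7 and 8 (311 ± 99.5 CPM). These levels rest on 3255 to 19252 reads per library. The lowest day 35 saline library, at 265 CPM, lay above the highest day 2 meth library, at 249 CPM.

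Egr2, also known as Krox20, patterns the hindbrain and drives myelination by Schwann cells in mice, and is induced by activity in forebrain neurons. It had the widest range of the family, from 3.36 to 32.1 CPM, a 9.55-fold span over the 16 libraries. In day 2 saline rats it stood at 14.1, 4.66, 7.60 and 3.39 CPM (7.43 ± 4.77 CPM), and in day 2 meth rats at 3.36, 6.15, 3.80 and 6.44 CPM (4.94 ± 1.58 CPM). At day 35 it stood at 27.0, 32.1, 11.7 and 9.21 CPM in saline rats (20.0 ± 11.3 CPM) and at 20.1, 24.3, 6.46 and 10.0 CPM in meth rats (15.2 ± 8.37 CPM). All 4 day 35 saline libraries and all 4 day 35 meth libraries lay above all 4 day 2 meth libraries. However, the lowest day 35 meth library, at 6.461 CPM, exceeded the highest day 2 meth library, at 6.441 CPM, by far less than the spread within either group. The lowest level rests on 85 reads in day 2 meth replicate 1, and the smallest read count was 80.

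Egr3, which responds to many of the stimuli that induce Egr1 and in mice is needed for muscle spindles to form, had the narrowest range, 1.94-fold over all libraries. It stood at 41.9, 25.5, 33.3 and 27.7 CPM in day 2 saline rats (32.1 ± 7.33 CPM) and at 24.6, 32.1, 28.2 and 32.6 CPM in day 2 meth rats (29.4 ± 3.74 CPM). At day 35 it stood at 43.9, 46.3, 35.3 and 35.8 CPM in saline rats (40.3 ± 5.59 CPM) and at 47.8, 47.6, 30.1 and 32.1 CPM in meth rats (39.4 ± 9.61 CPM). The same libraries as for Egr1 were high. The day 35 saline libraries lay above all day 2 meth libraries, and every other pair of groups overlapped.

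Egr4, also known as NGFI-C, was named for its induction by nerve growth factor and in mice is needed for male germ cells to mature. It stood at 29.9, 19.2, 22.9 and 18.2 CPM in day 2 saline rats (22.5 ± 5.32 CPM), and at 19.3, 20.7, 20.2 and 20.4 CPM in day 2 meth rats, which lay closer together than in any other group (20.1 ± 0.598 CPM). At day 35 it stood at 42.1, 45.8, 23.0 and 26.5 CPM in saline rats (34.4 ± 11.3 CPM) and at 34.4, 37.9, 23.4 and 23.2 CPM in meth rats (29.7 ± 7.54 CPM). The libraries of both day 35 groups lay above all day 2 meth libraries, while the saline groups of the 2 days overlapped. How many of all genes had groups that separate like this, here and for Egr1, Egr2 and Egr3, was not counted.

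**Figure D1:**
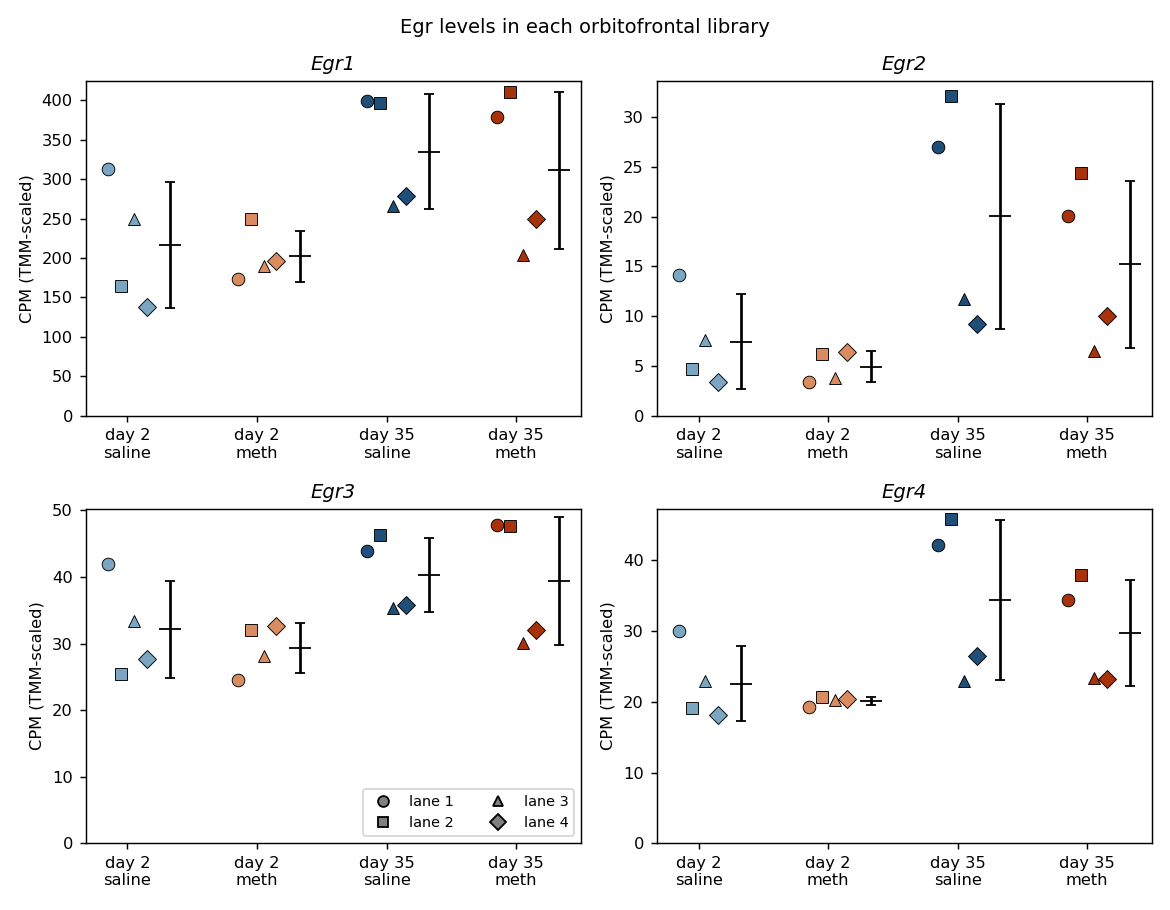
Level of each Egr gene in the 16 libraries, as TMM-scaled CPM on a linear axis from 0. Points are libraries (pools of 2 rats), their shape gives the sequencing lane, and the bar beside them is the group mean ± SD (n = 4). In both day 35 groups the libraries on lanes 1 and 2 lie above those on lanes 3 and 4 for every Egr gene.

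The order of the group means was the same for all 4 genes: day 2 meth lowest, then day 2 saline, day 35 meth and day 35 saline. The libraries of neighbouring groups in this order overlapped for each gene, day 2 saline and day 35 meth included. The 4 genes were high and low in the same libraries, so their shared order is not 4 separate observations.

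Meth and saline rats did not differ detectably in any Egr gene on either day. At day 2 the log2 fold change, meth over saline, was -0.09 for Egr1 (SE 0.287), -0.54 for Egr2 (SE 0.636), -0.12 for Egr3 (SE 0.196) and -0.16 for Egr4 (SE 0.256). The 95% intervals ran from 0.608- to 1.44-fold for Egr1, from 0.263- to 1.79-fold for Egr2, from 0.686- to 1.24-fold for Egr3 and from 0.611- to 1.32-fold for Egr4. No Egr gene was called (edgeR adjusted p = 0.82 to 0.94), in a comparison where 0.11% of all genes were (17 of 15413). With day 2 saline replicate 13 left out, the library with the highest Egr levels at day 2, the log2 fold changes of Egr1, Egr3 and Egr4 were 0.13, 0.025 and 0.00, so the direction of these differences rests on that library. The Egr2 value was then -0.06, against -0.54 with it.

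At day 35 the log2 fold change, meth over saline, was -0.11 for Egr1 (SE 0.282), -0.40 for Egr2 (SE 0.501), -0.03 for Egr3 (SE 0.183) and -0.21 for Egr4 (SE 0.233). Again no Egr gene was called (edgeR adjusted p = 0.96 to 0.99), and 0% of all genes were (0 of 15413 with edgeR, 1 with DESeq2, 0 with limma-voom, and 902 at an unadjusted p under 0.05). The 95% intervals ran from 0.607- to 1.42-fold for Egr1, from 0.356- to 1.61-fold for Egr2, from 0.742- to 1.29-fold for Egr3 and from 0.608- to 1.23-fold for Egr4. With day 35 meth replicate 7 left out, Egr1 and Egr3 had log2 fold changes of 0.05 and 0.08, and the sign of Egr3 turned without any 1 of 4 libraries.

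The direct test of whether the meth effect differed between the days called none of the 4 genes either, beside 0.136% of all genes (21 of 15413). The difference of the log2 fold changes, day 35 minus day 2, was -0.01 for Egr1 (SE 0.402), 0.14 for Egr2 (SE 0.808), 0.09 for Egr3 (SE 0.269) and -0.06 for Egr4 (SE 0.346), with an edgeR adjusted p of 0.96 to 1. The interval for Egr1 reached from 0.541- to 1.82-fold and that for Egr2 from 0.327- to 3.73-fold, so differences of moderate size were not detectable at this spread. In these 3 comparisons no Egr gene reached an unadjusted p under 0.05 with edgeR, DESeq2 or limma-voom, and none was called by any of the 3 tools. At day 2 DESeq2 adjusted over 5700 genes only and gave Egr2 and Egr4 no adjusted p.

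**Figure D2:**
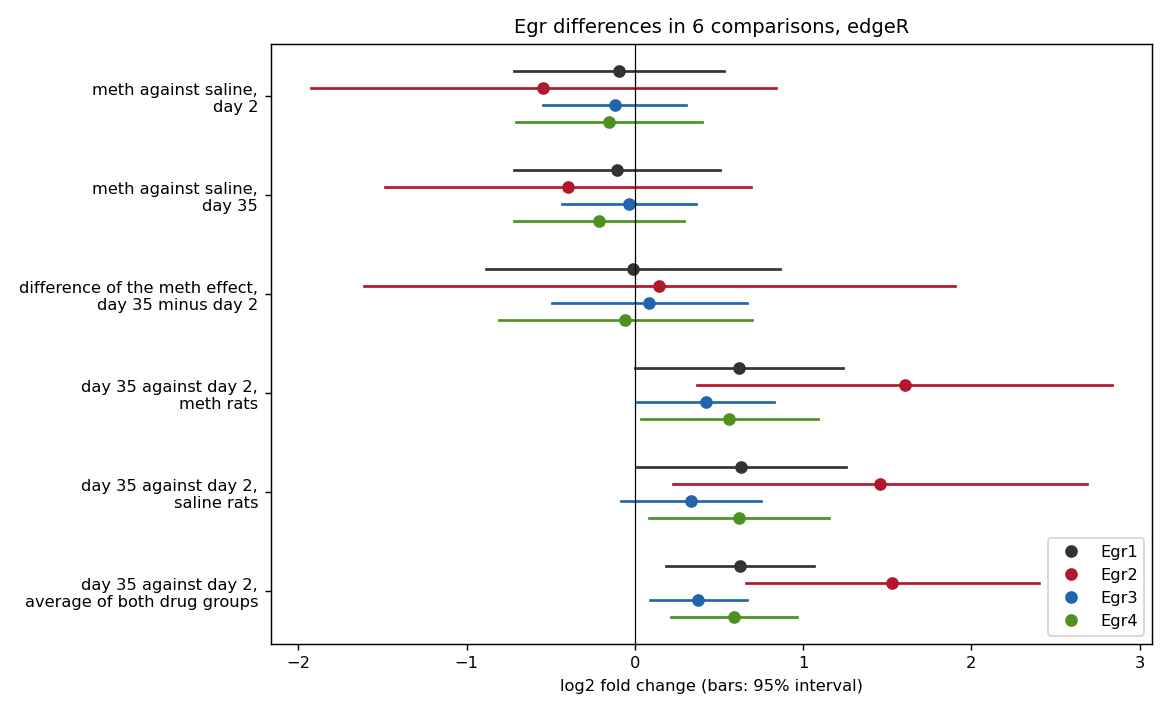
Log2 fold change of each Egr gene (points) with its 95% interval (bars) in 6 comparisons, from 1 edgeR fit over 16 libraries. The intervals of the meth comparisons all span 0, and the estimates for day 35 against day 2 are all above 0, widest for Egr2.

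Levels on withdrawal day 35 stood above those on day 2 in both drug groups for all 4 genes, but no Egr gene passed the adjusted threshold within a drug group. In meth rats the log2 fold change, day 35 over day 2, was 0.62 for Egr1 (SE 0.285), 1.60 for Egr2 (SE 0.568), 0.42 for Egr3 (SE 0.187) and 0.56 for Egr4 (SE 0.242), or 1.54-, 3.04-, 1.34- and 1.48-fold. The edgeR adjusted p was 0.31, 0.18, 0.29 and 0.27, and all 4 genes had an edgeR unadjusted p of 0.05 or lower (0.015 for Egr2). In this comparison 1.83% of all genes were called (282 of 15413), and 16.0% had an unadjusted p under 0.05. Of the 16 pairings of a day 35 meth with a day 2 meth library, the day 35 library was the higher in 15 for Egr1, 16 for Egr2, 13 for Egr3 and 16 for Egr4. These pairings reuse the same libraries and are not separate observations. How many of all genes reach such counts was not computed.

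In saline rats the values were close to those in meth rats. The log2 fold change, day 35 over day 2, was 0.63 for Egr1 (SE 0.286), 1.46 for Egr2 (SE 0.567), 0.33 for Egr3 (SE 0.192) and 0.62 for Egr4 (SE 0.247). None was called (edgeR adjusted p = 0.57, 0.52, 0.66 and 0.53), beside 0% of all genes (0 of 15413 with edgeR, 36 with DESeq2, 0 with limma-voom, and 1338 at an unadjusted p under 0.05). Egr1, Egr2 and Egr4 had an edgeR unadjusted p under 0.05 and Egr3, at 0.11, did not. The day 35 library was the higher in 14 of 16 pairings for each gene, a count that was likewise not computed for other genes. DESeq2 and limma-voom also called 0 of the 4 genes within either drug group, with 4 genes in meth and 3 in saline rats at an unadjusted p under 0.05. The comparisons within a drug group use the same libraries as the comparisons of the drugs, and their values are set side by side for that reason only.

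Averaged over both drug groups, a comparison added after the levels had been seen, the day difference was larger than its error for each gene but still missed the adjusted threshold. Egr1 stood at 209 ± 57.0 CPM in the 8 day 2 libraries and 323 ± 81.8 CPM in the 8 day 35 libraries, 1.54-fold higher (log2 0.63 with SE 0.202, edgeR adjusted p = 0.15). Egr2 stood at 6.19 ± 3.55 and 17.6 ± 9.54 CPM (2.89-fold, log2 1.53 with SE 0.401, edgeR adjusted p = 0.088). Egr3 stood at 30.7 ± 5.59 and 39.9 ± 7.29 CPM (1.30-fold, log2 0.38 with SE 0.134, edgeR adjusted p = 0.20), and Egr4 at 21.3 ± 3.74 and 32.0 ± 9.24 CPM (1.5-fold, log2 0.59 with SE 0.173, edgeR adjusted p = 0.12). All 8 day 35 libraries lay above the median of the day 2 libraries for each gene, and 4 of the 8 lay above the highest day 2 library. These counts were not computed for other genes. In this comparison 1.06% of all genes were called (163 of 15413). The median log2 fold change over the 4 Egr genes was 0.61. Of all genes tested, 0.616% (95 of 15413) had a log2 fold change at least that large in either direction. The 4 genes moved together and varied widely between pools, so this share is a description only.

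Whether an Egr gene passed depended on the tool. DESeq2 called 3 of the 4 genes in the average over drug groups, Egr1 (DESeq2 adjusted p = 0.049), Egr2 (0.006) and Egr4 (0.025), with Egr3 at 0.099. Of all genes it called 475 of the 11671 it adjusted over, against 163 of 15413 (1.06%) with edgeR, so the 2 sets of genes are unlike. edgeR without its robust option called Egr2 alone of the 4 (adjusted p = 0.040), beside 150 of 15413 genes in all. With limma-voom none of the 4 was called (adjusted p = 0.083 to 0.13), beside 134 of 15413 in all. The fold changes themselves were close between tools, at 1.53 for Egr2 on the log2 scale with DESeq2 and 1.48 with limma-voom.

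Depth, which was lower at day 2, moved with the day. With every library thinned to the 20.33 M gene counts of the shallowest, the averaged log2 fold changes of Egr1 to Egr4 were 0.62, 1.57, 0.38 and 0.56. Thinning lowers all counts of a library in proportion and keeps its expected CPM. It therefore cannot test whether other traits of the libraries that moved with depth bear on these levels. Each group carried 1 sequencing index, so index and group cannot be told apart. The rats were trained in 2 runs per the design text, and no label ties a library to a run.

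Each of the 4 sequencing lanes held 1 library of every group, so the day difference can also be read within lanes. For Egr1 the log2 difference, day 35 minus day 2, was 1.13, 0.72, 0.10 and 0.35 on lanes 1 to 4 in meth rats, and 0.35, 1.26, 0.09 and 1.01 in saline rats. For Egr2 it was 2.41, 1.90, 0.69 and 0.60 in meth rats and 0.92, 2.66, 0.59 and 1.32 in saline rats. Egr4 was above 0 on each lane in both drug groups, down to 0.004 on lane 3 in saline rats, and Egr3 was above 0 except on lane 4 in meth rats (-0.02). The meth difference at day 2 changed sign from lane to lane, at -0.85, 0.59, -0.39 and 0.51 for Egr1. A test of lane as a term in the model called 0 of 15413 genes with edgeR, and the Egr genes had an edgeR adjusted p of 0.72 to 0.81 there, with unadjusted values from 0.05 for Egr4 to 0.28 for Egr3. With lane as a replicate block, the averaged day difference of Egr2 was 1.39 (edgeR adjusted p = 0.076) and no Egr gene was called in any comparison.

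Pools of the same group differed more in Egr levels than in those of most genes. The within-group SD on the log2(CPM + 0.5) scale was 0.41 for Egr1, 0.77 for Egr2, 0.27 for Egr3 and 0.34 for Egr4, against a median of 0.0957 over all 15413 genes tested. For Egr2, 20 other genes were as variable or more so (0.13%), for Egr1 119 (0.772%), for Egr4 260 (1.69%) and for Egr3 678 (4.40%). Spread depends on level, so each gene was also set beside genes within a factor of 2 of its own mean CPM: 2 of 1295 such genes were as variable as Egr1, 5 of 3899 as Egr2, 51 of 4711 as Egr3 and 23 of 4763 as Egr4. Leaving out any 1 library kept the SD between 0.373 and 0.428 for Egr1 and between 0.708 and 0.796 for Egr2, lowest for both without day 2 saline replicate 13. The biological coefficient of variation estimated by edgeR was 27.7%, 52.6%, 18.4% and 23.3% for Egr1 to Egr4, against a common value of 6.25%. Differences between the group means accounted for 44.3% of the variance of Egr1 across libraries, 54.2% of Egr2, 39.0% of Egr3 and 47.5% of Egr4. These shares are not adjusted for fitting 4 means to 16 libraries, which gives a share above 0 without any group effect. They were not computed for other genes.

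**Figure D3:**
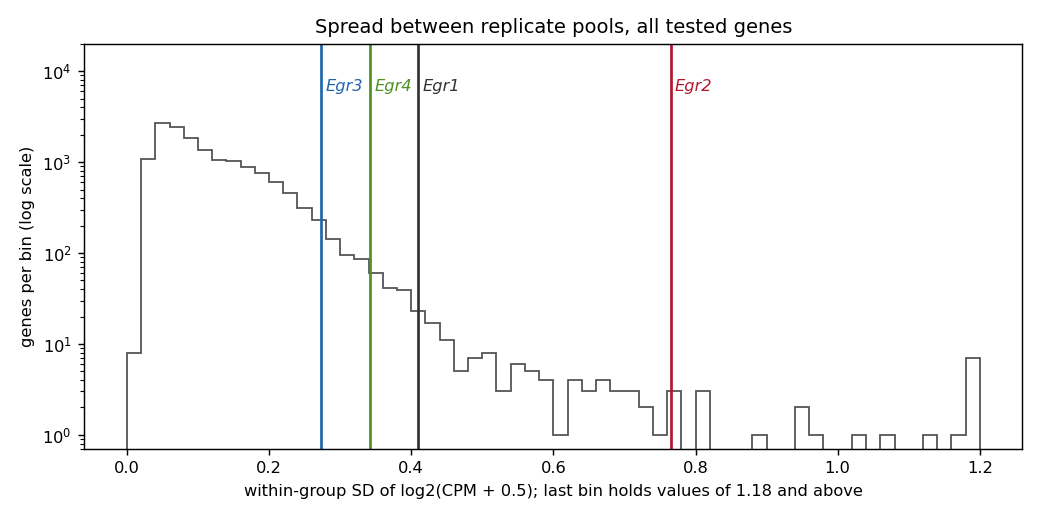
Number of genes (log scale) by their within-group SD of log2(CPM + 0.5), in bins of 0.02 with the last one open upwards, for all 15413 genes tested. The vertical lines mark the Egr genes, from 0.27 for Egr3 to 0.77 for Egr2, all to the right of the bulk of genes, whose median is 0.0957.

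The pools that were high for 1 Egr gene were high for the others. Across the 16 libraries Egr1 and Egr2 correlated with r = 0.96 (rho = 0.96) and Egr3 and Egr4, the least alike, with r = 0.92 (rho = 0.89). All 6 pairs lay between these values, and for each r and each rho the two-sided permutation p was 2e-05, the smallest that 100000 resamples can give, as it was after Benjamini-Hochberg adjustment over the 6 pairs. The permutations exchanged libraries between groups, so this p also takes in group differences that the genes share. The correlations in subsets and of deviations, given next, were not tested. Without the 2 libraries farthest from the median of the first gene, r was 0.90 to 0.97 over 14 libraries. In subsets, r was 0.86 to 0.94 within the 8 day 2 libraries, 0.90 to 0.98 within the 8 day 35 libraries, and 0.87 to 0.94 for deviations from the group means. With any 1 library left out, the lowest of these deviation correlations was 0.84. The libraries share no reads, but the 4 values of a library share its tissue, preparation and scaling.

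Ranked by level, the top 4 libraries were the same for every Egr gene: day 35 saline replicates 9 and 10 and day 35 meth replicates 5 and 6, those on lanes 1 and 2. Day 2 saline replicate 13 came next, at rank 5 for all 4 genes, above every other day 2 library and above the other 4 day 35 libraries. The lowest 4 libraries were also the same for every gene, day 2 saline replicates 14 and 16 and day 2 meth replicates 1 and 3. At day 2, saline replicates 13 and 15 (lanes 1 and 3) lay above saline replicates 14 and 16 for each gene, and meth replicates 2 and 4 (lanes 2 and 4) lay above meth replicates 1 and 3.

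**Figure D4:**
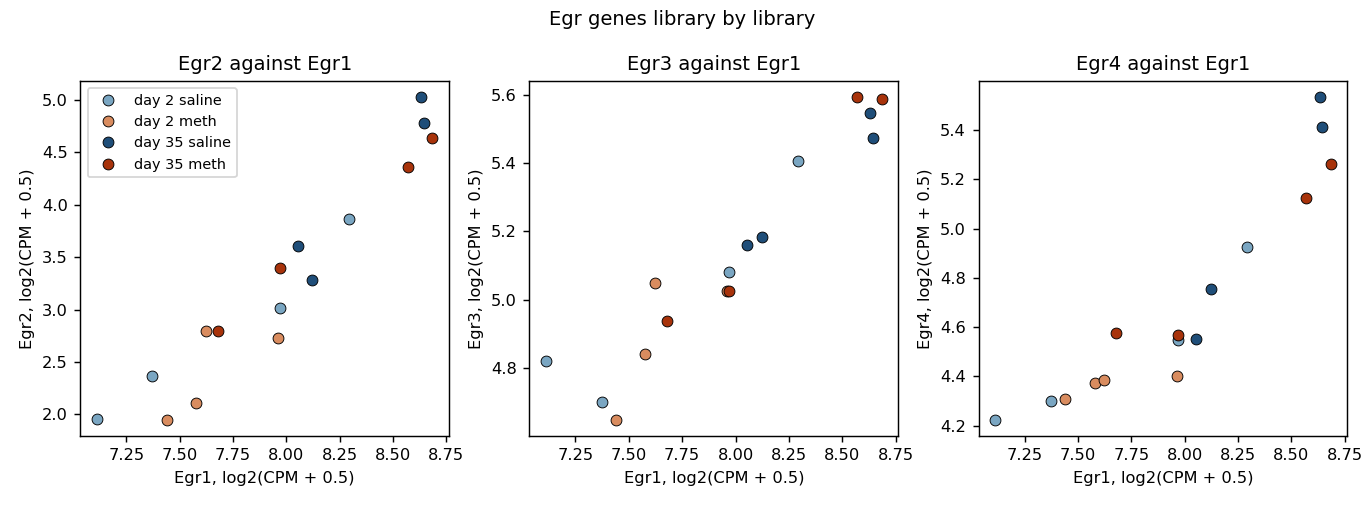
Level of Egr2, Egr3 and Egr4 against Egr1 in the 16 libraries, on the log2(CPM + 0.5) scale, coloured by group. The points of all groups lie along 1 course in each panel, with r of 0.96, 0.95 and 0.93.

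The members moved together but not by equal amounts. Within groups, a difference of 1 log2 unit in Egr1 went with 1.76 units in Egr2, 0.618 in Egr3 and 0.733 in Egr4 (slopes of the deviations from the group means). In counts, Egr2 gave 1.94 to 8.11 reads per 100 reads of Egr1, a 4.18-fold span. The mean was 3.20 ± 0.896 in day 2 saline, 2.42 ± 0.619 in day 2 meth, 5.64 ± 2.18 in day 35 saline and 4.59 ± 1.25 in day 35 meth libraries (SD, n = 4). Egr4 kept nearer to Egr1, at 8.30 to 13.2 reads per 100, and Egr3 gave 11.0 to 20.1. These ratios are not corrected for gene length, so only their differences between libraries can be read.

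Of the 15409 other genes tested, 9 had a mean r of 0.9 or more with the 4 Egr genes over the 16 libraries, 69 had 0.8 or more, and the median was -0.024. The most alike was ENSRNOG00000016167 (mean r = 0.94), whose range was narrow, from 60.0 to 75.7 CPM. Next was ENSRNOG00000043465 (mean r = 0.92), which ranged from 81.2 to 395 CPM and averaged 157 ± 80.5 CPM in day 2 saline, 123 ± 33.4 in day 2 meth, 269 ± 112 in day 35 saline and 242 ± 117 CPM in day 35 meth libraries (SD, n = 4). Its averaged day difference was a log2 value of 0.88 with SE 0.320 (edgeR adjusted p = 0.21). Neither identifier is paired with a gene name in the sources used here, and the correlations are descriptions over libraries that share groups, lanes and scaling.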

How the data were processed

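Poly(A) RNA-seq of 16 orbitofrontal libraries was used. The 12 samples of central amygdala are not analysed here. The deposited values are raw read counts per Ensembl gene, with no normalization, made with TopHat and HTSeq on rn4 per the submitters' processing notes, where limma is also named, with versions not given in the sources used here. TruSeq v2, the library kit in the labels, does not mark strand, so reads of a gene and of an overlapping antisense gene cannot be told apart. The 5 summary rows of each file (20.89 to 22.35% of reads without a feature, 9.17 to 10.29% with several alignments) were left out.

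The files hold no gene names: the 4 Egr identifiers were chosen with their names, and 0 of 26405 identifiers matched the reference gene table. The lists of Egr co-repressors, other immediate early genes, targets and cell type markers could therefore not be run, and the tissue was not checked against markers. The Egr members and these lists were chosen with earlier results of these data known. The named genes were the 4 Egr genes and the 2 with the highest mean correlation with them.

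Genes were kept by edgeR's filterByExpr and scaled by TMM (factors 0.985 to 1.018). The 4 group means entered a robust quasi-likelihood fit in edgeR 4.0.16 (R 4.3.3; glmQLFit, glmQLFTest), with Benjamini-Hochberg adjustment over all 15413 genes. A standard error is the log2 fold change over the square root of F, and 95% intervals use the fit's degrees of freedom. Correlations used log2(CPM + 0.5). The fit was tested on simulated data, with changes set in genes drawn at random from all those tested. It does not show what change could be detected at the wider spread of the Egr genes. Alternatives were DESeq2 1.42.0, limma-voom 3.58.1, other scalings and filters, thinning, a lane block, separate fits for each pair of groups, and left-out libraries. Lanes pair the libraries in the labels; deviations from group means over all genes correlated by 0.023 on average in 24 same-lane pairs (-0.24 to 0.21) and by -0.0075 in 72 others. Replicates are separate pools of rats per the labels.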

Additional observations from a re-analysis of the deposited data

How the results depend on the processing

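The number of Egr genes called stayed at 0 in every alternative run, except in the day difference averaged over drug groups, where DESeq2 called 3 and edgeR without its robust option 1 (this comparison and the option were added after seeing the data). All 308 alternative estimates of the day differences kept their sign. Of 308 estimates of the meth differences and of their change between days, 33 took the other sign, none of them past the threshold; the cause was not tested. With limma-voom the change of the meth effect was -0.064 for Egr2. With saline replicate 13 and meth replicate 4, both of day 2, left out at once, the day 2 meth difference was 0.15 for Egr1, and the change of the effect was -0.18 for Egr2 and -0.007 for Egr3. With 1 library left out, the day 2 meth difference ran from -0.27 to 0.13 for Egr1, from -0.79 to -0.063 for Egr2, from -0.22 to 0.025 for Egr3 and from -0.25 to 0.00 for Egr4. The day 35 one ran from -0.27 to 0.05 for Egr1, from -0.72 to -0.092 for Egr2, from -0.14 to 0.077 for Egr3 and from -0.36 to -0.05 for Egr4. The change of the effect ran from -0.24 to 0.16 for Egr1, from -0.34 to 0.46 for Egr2, from -0.059 to 0.20 for Egr3 and from -0.21 to 0.11 for Egr4. Lane as a replicate block changed no call of an Egr gene (Egr1 averaged over drug groups 0.60). The 6 correlations between Egr genes kept their direction with other size factors and with a pseudocount of 0.1 CPM. Over all genes, DESeq2 called 110, 1, 78, 551, 36 and 475 genes in the 6 comparisons, against 17, 0, 21, 282, 0 and 163 with edgeR. The 21 became 8 with median-ratio size factors, 9 with a 1 CPM filter, limma-voom or without the robust option, 4 with the lane block and 7 with thinned counts, which also turned 282 into 170 and 163 into 100. Single libraries also moved these counts. Of the day 2 libraries, leaving out meth replicate 2 turned the 17 into 6, meth replicate 4 into 8 and saline replicate 13 into 10. The 21 became 17 without day 2 meth replicate 1 and 0 to 13 without any other library (0 without day 2 saline replicate 14). The 282 became 104 to 182 without any 1 meth library other than day 2 replicate 1 (104 without day 2 replicate 4). The 163 became 59 without day 2 saline replicate 16 and 81 to 92 without day 2 meth replicate 3 or 4, day 35 meth replicate 5 or 6 or day 35 saline replicate 10. The saline day difference gave 2 calls without day 2 saline replicate 14 and 1 without day 35 saline replicate 9. Depth limits Egr2 most, with 80 reads in its lowest library.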

Other observations

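Egr4 stood out in day 2 meth rats for how close the 4 pools lay. Its coefficient of variation there was 2.97%, below the 3.84% that counting error alone gives at these read numbers, while it was 23.6% in day 2 saline, 32.9% in day 35 saline and 25.4% in day 35 meth libraries. In the same 4 day 2 meth libraries the coefficient was 16.1% for Egr1, 32.0% for Egr2 and 12.8% for Egr3. For each Egr gene day 2 meth was the group with the lowest coefficient, and with 4 pools per group this difference in spread was not tested. How many of all genes lie below their counting error in a group was not counted.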
